A study of Mus musculus with 12 samples.

Results

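The enzymes described here carry glucose to pyruvate and interconvert pyruvate and lactate in cultured mouse astrocytes. They are 10 genes, Hk1, Hk2, Gpi1, Pfkl, Aldoa, Tpi1, Gapdh, Pgk1, Ldha and Ldhb, chosen by symbol, with every array probe annotated to the symbol or to an older synonym. Of the 10 genes 9 had a probe, together 12 of the 24613 probes on the array, and Gpi1 (glucose-6-phosphate isomerase) had none. Tpi1 was read by 2 probes, Gapdh by 3 and each of the others by 1.

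RNA came from primary cortical astrocytes of 2-day-old pups of SAMP8, a senescence-accelerated mouse, or of SAMR1, its senescence-resistant control strain. At culture day 21 all cells received 10% rat serum for 48 h, from rats fed ad libitum (AL) or from rats under caloric restriction (CR). Each strain and serum was combined in 4 groups of 3 cultures, named SAMR1-AL and SAMR1-CR for the control strain and SAMP8-AL and SAMP8-CR for the senescent one. The submitters describe biological replicates, so that p-values measure the spread between these cultures. The strains differ across their genomes and not at 1 engineered locus, and per the submitters the cultures held 85 to 90% astrocytes, 10 to 15% microglia and 0.1 to 1% oligodendroglia. Strain was compared with AL serum (P8AL-R1AL), with CR serum (P8CR-R1CR) and over both sera, serum was compared in each strain (R1CR-R1AL, P8CR-P8AL) and over both strains, and the strain by serum interaction was tested.

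Glycolysis begins when a hexokinase traps glucose as its phosphate, and phosphofructokinase later commits the sugar to the pathway. Aldolase then splits the sugar, and triosephosphate isomerase, glyceraldehyde-3-phosphate dehydrogenase and phosphoglycerate kinase carry the triose products towards pyruvate, which lactate dehydrogenase reduces to lactate. Astrocytes are known as the glycolytic cells of the brain, storing glycogen and releasing lactate to neurons.

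Between 41.2% and 46.7% of probes were detected per array, with median intensities of 85.2 to 123, and precision is limited by how few arrays there are. Of the 13 listed astrocyte markers 10 were detected well enough to be tested, among them Gfap, Slc1a3 and Gja1 in all 12 arrays. Values below are log2 intensities scaled to the same mean and SD in every array, with 0 at the array's mean, so a difference of 1 is a factor of 2. Testing was confined to probes detected throughout at least 1 group, 10935 in number, and covered 8 of the 10 enzymes. Replicates 2 and 3 of both SAMP8 groups, 4 arrays, had a minimum intensity of 40.1 to 42.9, whereas in the remaining 8 it was 7.01 to 8.19. No label names this division into array sets, and all SAMR1 arrays stand on its lower side, with only replicate 1 of each SAMP8 group. Strain differences within the lower side, or with the array set as a block, thus rest on 1 SAMP8 array per serum. In bulk RNA, fewer cells of a type and less RNA per cell cannot be told apart.

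Over both sera, 3 of the 8 tested enzymes differed between the strains (37.5%), against 15.6% of all tested probes. Hk1 and Pfkl were higher in SAMP8, by 1.59-fold and 1.79-fold, as were 9.71% of probes, and Hk2 was lower by 1.49-fold, as were 5.93% of probes. Each of these 3 was read by 1 probe, so no second probe could check its difference. Aldoa, Tpi1, Gapdh, Ldha and Ldhb did not pass the test. The median log2 difference of the 8 enzymes was 0.05, beside 0.04 for all tested probes. CR serum moved none of the 8 past the threshold in either strain.

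Hk1 encodes the hexokinase that predominates in brain. Its normalized log2 intensities in SAMR1-AL were 0.42, 0.36 and 0.20, and those in SAMR1-CR were 0.19, -0.02 and 0.90. In SAMP8-AL they were 0.97, 1.41 and 1.08, and in SAMP8-CR 0.57, 0.90 and 1.10. With AL serum every SAMP8 array thus lay above every SAMR1 array, whereas with CR serum the strains overlapped, since SAMR1-CR replicate 3 reached the SAMP8 range. Over both sera Hk1 was higher in SAMP8 by 0.67 on the log2 scale (95% interval 0.34 to 0.99, limma, adjusted p = 0.00981). The difference in P8AL-R1AL was 0.83 ± 0.22 (SE, adjusted p = 0.0299) and that in P8CR-R1CR was 0.50 ± 0.22 (adjusted p = 0.267). The P8AL-R1AL call was lost when SAMR1-AL replicate 2 or 3 or SAMP8-AL replicate 2 or 3 was left out, with adjusted p between 0.0725 and 0.122, and without SAMR1-CR replicate 3 the P8CR-R1CR difference reached 0.77 (adjusted p = 0.0427). With the array set as a block the difference over both sera was 0.43 (adjusted p = 0.242), and in the 8 arrays of low minimum intensity it was the same size (adjusted p = 0.411).

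Hk2 encodes the inducible hexokinase that is prominent in muscle and in many proliferating cells. Its values in SAMR1-AL were 2.72, 2.67 and 2.96, and those in SAMR1-CR were 2.57, 2.89 and 3.12. In SAMP8-AL they were 2.17, 2.35 and 2.28, and in SAMP8-CR 2.19, 2.25 and 2.25. All 6 SAMP8 arrays lay below all 6 SAMR1 arrays, and the SAMP8 values were packed within a narrow range. Over both sera Hk2 fell by 0.58 in SAMP8 on the log2 scale (95% interval -0.80 to -0.35, adjusted p = 0.00261). The difference was -0.52 ± 0.15 (SE) in P8AL-R1AL (adjusted p = 0.0452) and -0.63 ± 0.15 in P8CR-R1CR (adjusted p = 0.0384). Both single-serum calls stood close to the threshold. That of P8AL-R1AL was lost without any 1 of the 9 arrays of SAMR1-AL, SAMP8-AL and SAMP8-CR (adjusted p up to 0.135). That of P8CR-R1CR was lost without SAMR1-CR replicate 2 or 3 or any 1 of the 6 SAMP8 arrays (adjusted p up to 0.150). Over both sera the call held without each array in turn, and in the 8 arrays of low minimum intensity the difference was -0.64 (adjusted p = 0.126). When arrays were only centred on their median, without scaling of the SD, it was -0.34 (adjusted p = 0.307), with the median of all tested probes at 0.16.

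Pfkl encodes the liver-type subunit of phosphofructokinase, the committing enzyme of glycolysis. Its values were 2.44, 2.18 and 1.83 in SAMR1-AL and 2.40, 2.08 and 2.55 in SAMR1-CR. They were 3.42, 3.05 and 3.16 in SAMP8-AL and 3.15, 3.04 and 2.70 in SAMP8-CR. Every SAMP8 array lay above every SAMR1 array in both sera, the nearest being SAMP8-CR replicate 3 and SAMR1-CR replicate 3. Over both sera Pfkl rose by 0.84 on the log2 scale (95% interval 0.55 to 1.13, adjusted p = 0.000867), and this call held under each of the 21 alternative processings, including the 12 that left out 1 array. It rose by 1.06 ± 0.19 (SE, adjusted p = 0.00441) in P8AL-R1AL, a factor of 2.08. The P8CR-R1CR difference was 0.62 ± 0.19 (adjusted p = 0.104), and the interaction, the amount by which the change with CR serum differed between the strains, was -0.44 (95% interval -1.01 to 0.13, adjusted p = 0.965).

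**Figure D1:**
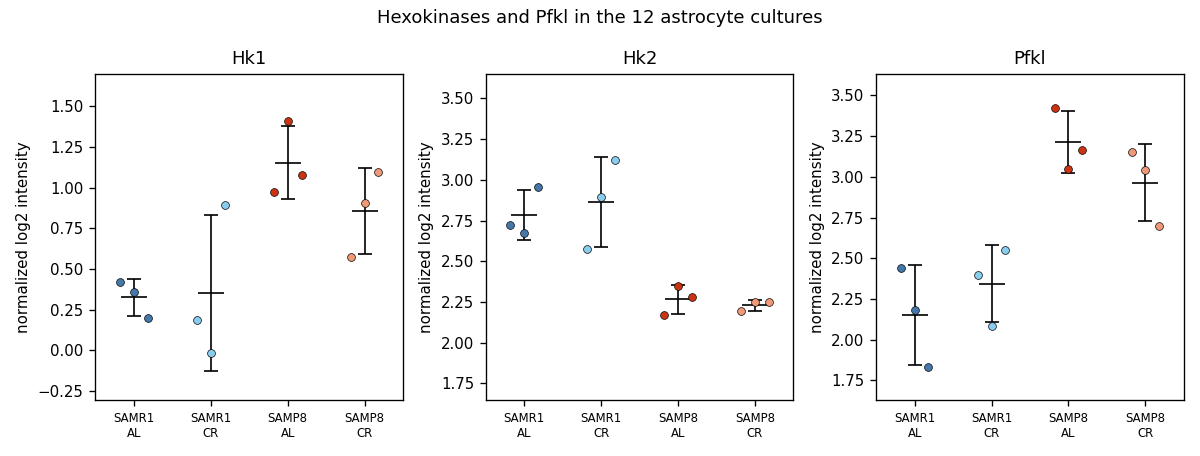
Normalized log2 intensity (y axis) of Hk1, Hk2 and Pfkl in the 4 groups (x axis), with 1 point per culture and bars for the mean and SD of 3. SAMP8 arrays lie above SAMR1 arrays for Pfkl and below them for Hk2 in both sera, while SAMR1-CR replicate 3 at 0.90 brings the Hk1 values of the strains into overlap.

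Groups without overlap were common in these data. In P8AL-R1AL the groups were apart for 3 of the 8 enzymes (Hk1, Hk2 and Pfkl), against 31.3% of all tested probes, a share close to that of the enzymes, 37.5%. In P8CR-R1CR they were apart for Hk2 and Pfkl, against 20% of probes, and over both sera for the same pair of genes, against 7.09%. By the adjusted p, 3 of 8 enzymes were called in P8AL-R1AL, against 9.67% of probes, of which 6.15% were higher and 3.51% lower. In P8CR-R1CR 1 of 8 was called, against 2.8% of probes, of which 1.47% were higher and 1.33% lower. With 8 enzymes each gene is 12.5% of the whole, so these shares are coarse.

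The promoter windows of the 3 called enzymes are shown because hexokinases and phosphofructokinase are textbook targets of the hypoxia-inducible factors, whose core recognition motif is ACGTG or GCGTG. The windows are RefSeq sequences of build GRCm38.p6, 300 bases long around an annotated transcription start, written 5′ to 3′ along the gene's strand, and all 10 enzymes matched the table, with 14 windows. Capitals mark ACGTG or GCGTG read on either strand, where overlapping matches count apart, so that CACGTG counts as 2. Hk1 has 2 annotated starts.
Hk1, chr10:62379859-62380158, minus strand: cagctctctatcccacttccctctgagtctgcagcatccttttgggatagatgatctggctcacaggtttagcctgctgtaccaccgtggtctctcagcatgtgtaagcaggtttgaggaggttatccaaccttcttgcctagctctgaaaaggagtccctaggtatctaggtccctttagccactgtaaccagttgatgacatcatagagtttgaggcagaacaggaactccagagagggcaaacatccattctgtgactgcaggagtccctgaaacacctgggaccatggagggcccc
Hk1, chr10:62340372-62340671, minus strand: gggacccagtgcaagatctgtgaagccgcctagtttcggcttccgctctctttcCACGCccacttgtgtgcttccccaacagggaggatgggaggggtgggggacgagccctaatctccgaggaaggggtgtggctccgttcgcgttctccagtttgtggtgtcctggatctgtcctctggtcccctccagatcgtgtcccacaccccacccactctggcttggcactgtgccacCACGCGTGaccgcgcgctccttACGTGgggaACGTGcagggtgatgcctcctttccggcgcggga
Hk2, chr6:82774405-82774704, minus strand: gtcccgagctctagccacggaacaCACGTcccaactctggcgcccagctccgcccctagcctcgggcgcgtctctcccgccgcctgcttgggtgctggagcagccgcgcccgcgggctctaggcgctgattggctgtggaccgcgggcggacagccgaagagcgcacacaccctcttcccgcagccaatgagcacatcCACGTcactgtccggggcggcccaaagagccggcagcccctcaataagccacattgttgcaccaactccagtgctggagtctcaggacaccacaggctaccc
Pfkl, chr10:78009758-78010057, minus strand: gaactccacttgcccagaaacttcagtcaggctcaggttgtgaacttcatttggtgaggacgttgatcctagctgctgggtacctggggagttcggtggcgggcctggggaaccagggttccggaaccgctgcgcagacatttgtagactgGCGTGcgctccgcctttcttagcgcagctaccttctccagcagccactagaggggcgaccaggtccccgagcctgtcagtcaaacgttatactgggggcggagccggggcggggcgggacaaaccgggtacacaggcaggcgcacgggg
Ldha, chr7:46845554-46845853, plus strand: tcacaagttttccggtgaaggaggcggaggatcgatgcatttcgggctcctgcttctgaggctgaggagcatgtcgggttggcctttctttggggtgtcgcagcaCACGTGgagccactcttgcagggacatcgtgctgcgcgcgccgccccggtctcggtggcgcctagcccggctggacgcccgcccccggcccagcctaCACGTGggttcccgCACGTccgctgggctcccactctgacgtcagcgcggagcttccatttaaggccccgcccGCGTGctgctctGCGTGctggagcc
The Pfkl window held 1 match and the Hk2 window 2, whereas the Hk1 windows held 0 and 5. At least 1 match was present in 43.8% of all 32851 windows of this length, at least 2 in 20.6% and at least 5 in 1.66%. The last sequence, the first of the 2 Ldha windows, held 7 matches, a number reached by 0.301% of windows, and is shown because Ldha did not pass the test between strains. The windows of Gpi1 and Tpi1 held 0, that of Gapdh 3, that of Pgk1 2 and that of Ldhb 1. The 3 Aldoa windows held 0, 1 and 1, and the second Ldha window held 2. The letters describe these windows only, and binding was not measured.

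Below phosphofructokinase, Aldoa encodes the aldolase found in most tissues. Its values spanned 4.29 to 5.49 over the 12 arrays, the highest being SAMR1-AL replicate 2 and the lowest SAMR1-CR replicate 2. The strain difference over both sera was 0.09 (95% interval -0.27 to 0.45, adjusted p = 0.763). Tpi1, triosephosphate isomerase, gave a strain difference of -0.01 (95% interval -0.29 to 0.28) with its brighter probe. Its dimmer probe gave 0.22 (95% interval 0.03 to 0.41, adjusted p = 0.111), with SAMP8-CR at 0.47 ± 0.07 and SAMR1-CR at 0.10 ± 0.06 (SD, n = 3). That probe's CR groups did not overlap. The sign of the brighter probe was kept in 10 of the 21 alternatives.

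Gapdh encodes the dehydrogenase that is often used as a reference gene in expression assays. Its brightest probe read 6.43, 7.67 and 7.17 in SAMR1-AL, 6.44, 6.86 and 7.32 in SAMR1-CR, 7.17, 6.40 and 6.75 in SAMP8-AL and 6.25, 6.35 and 6.86 in SAMP8-CR. The replicates of SAMR1-AL were spread more widely than the 4 group means, and all groups overlapped. The strain difference over both sera was -0.35 (95% interval -0.91 to 0.21, adjusted p = 0.391), and -0.23 and -0.29 with the other probes. The sign of the brightest probe was kept in 18 of the 21 alternatives. The Gapdh values moved with a property of the arrays. The 4 arrays with the lowest SD of log2 intensity (1.23 to 1.29), SAMR1-AL replicates 2 and 3, SAMR1-CR replicate 3 and SAMP8-AL replicate 1, held the 4 highest Gapdh values, 7.17 to 7.67, against 6.25 to 6.86 in the other 8 arrays (SD 1.35 to 1.61). This order belongs to the scaled values. As a multiple of the array's median intensity the same probe read 108 to 185 in those 4 arrays and 141 to 236 in the other 8, which overlap. The part of the array SD in the Gapdh values was not tested.

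Pgk1 encodes phosphoglycerate kinase, which makes ATP directly from a glycolytic intermediate. Its only probe was detected in 0 of 12 arrays, with detection p between 0.325 and 0.782 and intensities of 72.1 to 101. The gene was therefore not tested, and nothing can be said of its RNA from this probe.

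Ldha and Ldhb encode the subunits of lactate dehydrogenase, of which Ldha is the form that favours lactate formation in muscle and Ldhb the heart form. Ldha read 4.34, 4.92 and 4.57 in SAMR1-AL, 4.42, 4.54 and 4.66 in SAMR1-CR, 4.77, 4.67 and 4.82 in SAMP8-AL and 4.67, 4.62 and 4.82 in SAMP8-CR. The strains overlapped in each serum, with SAMR1-AL replicate 2 the highest array. The strain difference of Ldha over both sera was 0.15 (95% interval -0.12 to 0.43, adjusted p = 0.439). Ldhb ranged from 4.56 to 5.31, with a strain difference of 0.01 (95% interval -0.36 to 0.39, adjusted p = 0.968). These intervals leave room for differences of up to 0.43 and 0.39 on the log2 scale.

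**Figure D2:**
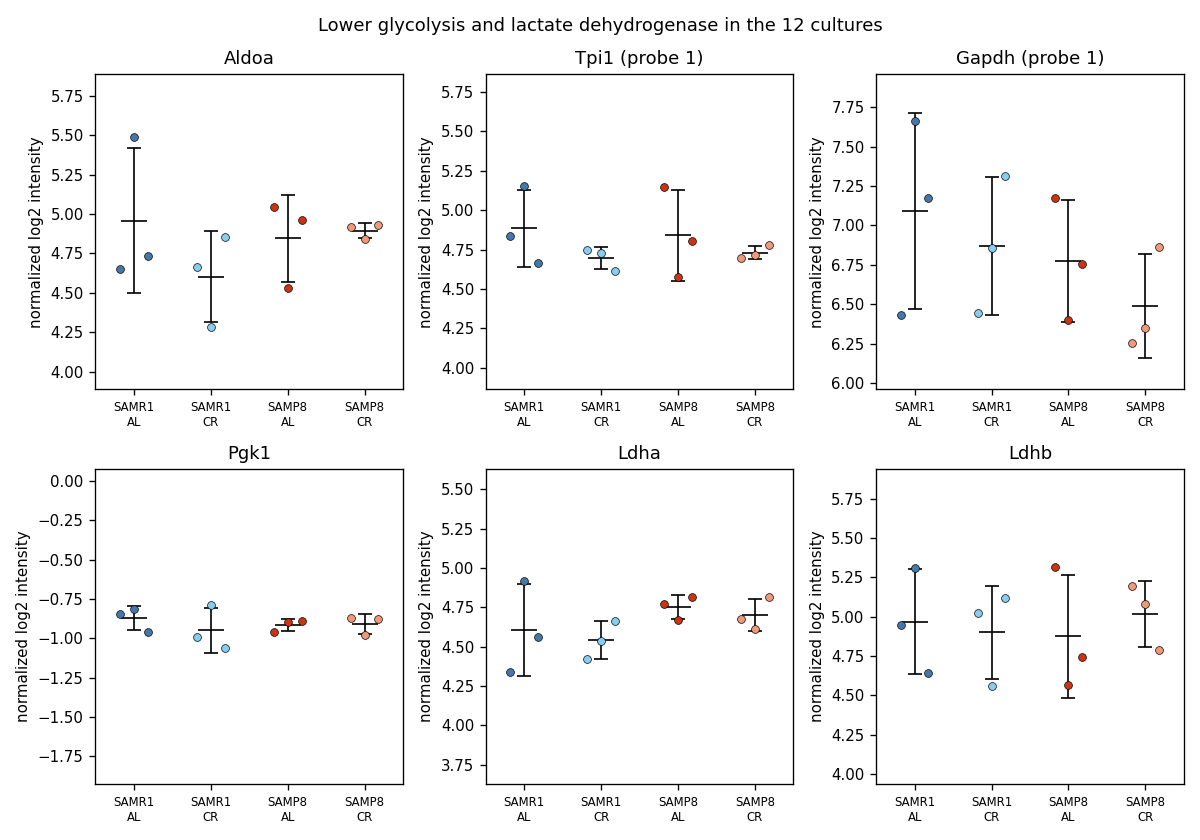
Normalized log2 intensity (y axis) of Aldoa, Tpi1, Gapdh, Pgk1, Ldha and Ldhb, brightest probe each, in the 4 groups (x axis), with 1 point per culture and bars for the mean and SD of 3. Strains overlap in every panel, Gapdh spans 6.25 to 7.67, and the Pgk1 probe lies between -1.06 and -0.79, where it was detected in 0 of 12 arrays.

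**Figure D3:**
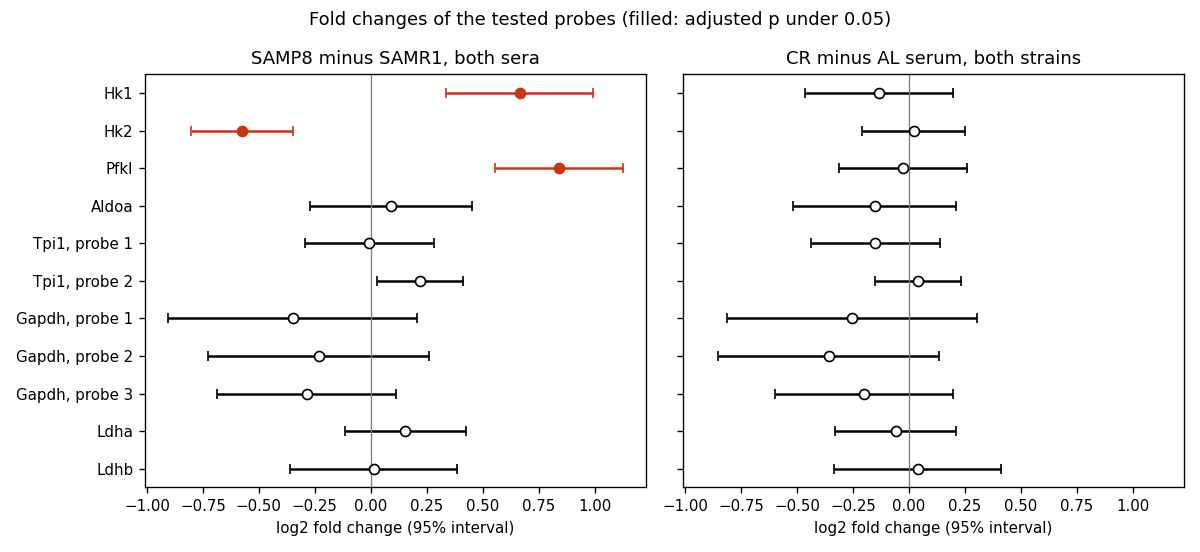
Log2 fold change (x axis) with its 95% interval for each of the 11 tested probes (y axis), between strains over both sera on the left and between CR and AL serum over both strains on the right. Filled points passed an adjusted p of 0.05: Hk1 at 0.67, Hk2 at -0.58 and Pfkl at 0.84 between strains, and none between sera.

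The balance of paired enzymes was also compared within each array, where only the change of the difference between groups is meaningful, since the probes differ in brightness. The Hk2 value minus the Hk1 value was 2.30, 2.31 and 2.76 in SAMR1-AL and 2.39, 2.91 and 2.23 in SAMR1-CR. It was 1.20, 0.94 and 1.20 in SAMP8-AL and 1.62, 1.35 and 1.15 in SAMP8-CR. Each SAMP8 array lay below each SAMR1 array, including SAMR1-CR replicate 3, where both hexokinases were high. The means were 1.24 in SAMP8 and 2.48 in SAMR1 (n = 6 each), a difference of -1.24 (two-sided exact permutation test within serum, p = 0.005, the smallest that 400 relabellings can give, adjusted p = 0.02 over 4 tests). This test adds up the Hk1 and Hk2 differences already given and is not independent of them. It also counts the AL and CR cultures of a strain as independent. If same-numbered cultures shared a preparation, which the labels do not say, its p could be too small. For Ldha minus Ldhb the means were -0.22 in SAMP8 and -0.36 in SAMR1, a difference of 0.14 (exact permutation p = 0.37, adjusted p = 0.493). Serum shifted Hk2 minus Hk1 by 0.15 (exact permutation p = 0.305) and Ldha minus Ldhb by -0.10 (exact permutation p = 0.57).

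**Figure D4:**
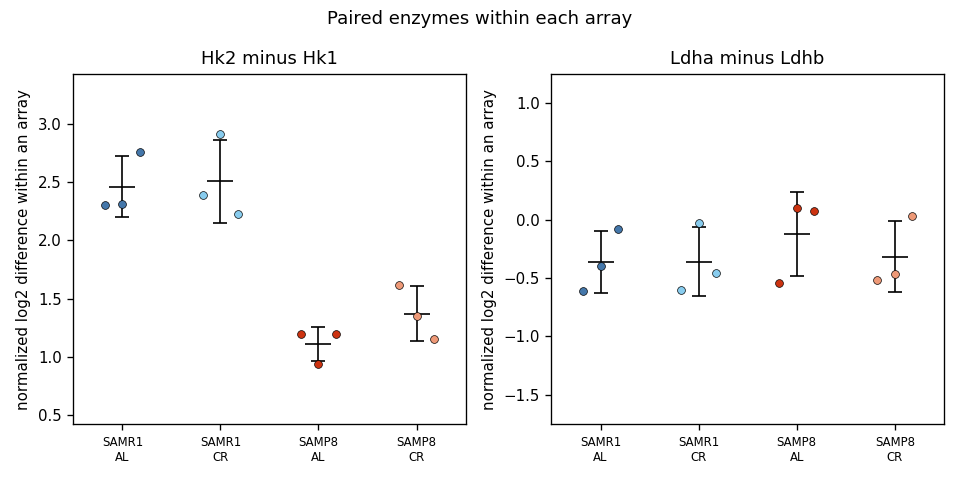
Within-array log2 difference (y axis) of Hk2 minus Hk1 and of Ldha minus Ldhb in the 4 groups (x axis), with 1 point per culture and bars for the mean and SD of 3. Hk2 minus Hk1 runs from 0.94 to 1.62 in SAMP8 and from 2.23 to 2.91 in SAMR1, whereas Ldha minus Ldhb overlaps between all groups.

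Caloric restriction serum changed none of the 8 enzymes by the test. In R1CR-R1AL 0 of 8 were called, against 0% of all probes, with 373 probes at an unadjusted p under 0.05 (3.41%). In P8CR-P8AL 0 of 8 were called, against 0% of probes, with 583 at an unadjusted p under 0.05 (5.33%). Over both strains and for the interaction 0 of 8 were called as well, again against 0% of probes, with 401 (3.67%) and 479 (4.38%) at an unadjusted p under 0.05. None of the 8 enzymes reached an unadjusted p under 0.05 in any of these 4 comparisons. By the brightest probe of each gene, the largest serum difference within SAMR1 was that of Aldoa, -0.36 (95% interval -0.87 to 0.16), and within SAMP8 that of Hk1, -0.30 (95% interval -0.76 to 0.17). Pfkl differed by 0.19 (95% interval -0.21 to 0.60) in SAMR1 and by -0.25 (95% interval -0.65 to 0.16) in SAMP8.

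The methods' Z ratio, which divides a difference of group means by the SD of all such differences and takes no account of replicates, was computed here over all 12 samples and read at a size of at least 1.5 for the brightest probe of each gene. The methods also state a significance of p under 0.05, which was not applied to the Z ratio here. The study's own Z ratios can be rebuilt from 10 samples, so those printed here can differ from the published ones. In P8AL-R1AL it picked the same 3 enzymes as limma, Pfkl (4.06), Hk1 (3.17) and Hk2 (-1.99), and in the other comparisons it picked more. In R1CR-R1AL it picked Aldoa (-2.74) and Gapdh (-1.68). In P8CR-P8AL it picked Hk1 (-2.08), Gapdh (-2.01) and Pfkl (-1.73). In P8CR-R1CR it picked Hk2 (-2.92), Pfkl (2.86), Hk1 (2.32) and Gapdh (-1.76). Except for Hk1, Hk2 and Pfkl between the strains, the limma intervals of these differences include 0. The share of all probes past a Z ratio of this size is not given here, so these counts have no background beside them.

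Among all other genes, those most like an enzyme in pattern were taken as the smallest root mean square difference of centred log2 values over the 12 arrays, for the 3 enzymes of widest range. Nearest to Pfkl was Pcx, pyruvate carboxylase, an enzyme that in brain is found in astrocytes, at 0.15, followed by H3c4 and Atp13a4 at 0.16 each. Nearest to Hk1 were Sptbn1 and Bicral at 0.14 and Cep170b at 0.15. For Gapdh they were Cd81 (0.17), Lamp1 (0.18) and H2bc4 (0.19). Likeness over 12 shared arrays takes in strain, serum and array properties alike.

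Other enzymes of the pathway moved in both directions between strains. Of 19 listed, 15 had a probe and 7 could be tested over both sera, of which Pfkp and Aldoc rose and Hk3 fell. For this list and those below, 15.6% of all tested probes were called over both sera. Pfkp, the platelet-type phosphofructokinase, was higher in SAMP8 by 0.92 (adjusted p = 0.0217), and its second probe gave 1.01. Aldoc, the brain aldolase and a classical astrocyte enzyme, was higher by 0.86 (adjusted p = 0.0221), and its second probe gave 1.17. The muscle-type Pfkm gave 0.35 with its brighter probe (adjusted p = 0.249) and 0.68 with the dimmer (adjusted p = 0.0109). Eno3, an enolase, was called in P8AL-R1AL at -0.37 (adjusted p = 0.0383), with 1 of 3 SAMP8-AL arrays detected, and in 9 of 20 alternatives. Over both sera it gave -0.23 (adjusted p = 0.0521), and its interaction was 0.30 (adjusted p = 0.965). Pkm, pyruvate kinase, differed by 0.08 (adjusted p = 0.805) and Eno2 by -0.14 (adjusted p = 0.437).

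SAMR1-CR replicate 3 was the highest SAMR1 array for several of the genes that rose in SAMP8. It read 4.25 for Pfkp, against 2.53 to 3.59 in the other 5 SAMR1 arrays, and 6.21 for Aldoc, against 4.89 to 5.82. For both genes the strains overlapped through this array. The Pfkp call was lost without SAMR1-AL replicate 3, SAMP8-AL replicate 1 or SAMP8-CR replicate 3 (adjusted p 0.0528 to 0.0596). That of Aldoc was lost without SAMR1-CR replicate 2, SAMR1-AL replicate 3 or SAMP8-CR replicate 3 (adjusted p 0.0522 to 0.0540). With a block for array set both calls were lost as well, at 1.02 for Pfkp (adjusted p = 0.101) and 1.11 for Aldoc (adjusted p = 0.0539).

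Hk3 encodes the hexokinase best known from white blood cells. Its values were 0.13, 0.59 and 0.39 in SAMR1-AL and 0.37, 0.52 and 0.35 in SAMR1-CR, against -0.48, -0.17 and -0.20 in SAMP8-AL and -0.44, -0.30 and -0.42 in SAMP8-CR. The strains did not overlap, and the difference over both sera was -0.73 (adjusted p = 0.00014). It was called in P8AL-R1AL (-0.65, adjusted p = 0.00862) and in P8CR-R1CR (-0.80, adjusted p = 0.00269). Markers of microglia and macrophages moved in the same direction as Hk2 and Hk3. Of 14 listed, 11 were tested, and over both sera 8 were lower in SAMP8, among them Cd14 (-2.16) and Fcgr3 (-2.01), while Aif1 gave 0.01 and Cx3cr1 -0.39 (adjusted p = 0.985 and 0.265). Fcer1g, which went the other way, was detected in 0 of 6 SAMR1 arrays and in all 6 of SAMP8, at least 10.2-fold higher. The mean level of the 11 markers ran from 1.96 to 2.72 in SAMR1-AL, 2.36 to 2.63 in SAMR1-CR, 1.23 to 2.13 in SAMP8-AL and 1.91 to 2.20 in SAMP8-CR. Of the astrocyte markers, Aqp4 (0.77), Glul (0.78) and Slc4a4 (1.30) were higher in SAMP8 and 7 of 10 were not called, with mean levels of 2.41 to 3.14, 2.43 to 3.27, 2.92 to 3.41 and 2.87 to 3.21 in the same order of groups. The part of cell composition in the hexokinase and Pfkl differences was not tested.

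The regulators of glycolysis, 12 listed and 8 tested, held 1 called gene over both sera. Pfkfb4, a bifunctional enzyme that sets the level of a phosphofructokinase activator, was lower in SAMP8 by the test at -0.40 (adjusted p = 0.00888), whereas its relative Pfkfb3 gave 0.27 (adjusted p = 0.236). The pyruvate dehydrogenase kinases Pdk1, Pdk2, Pdk3 and Pdk4, which hold pyruvate back from the mitochondrion, lay between -0.26 and 0.22, and none passed. Of the 8 glucose and lactate transporters 3 could be tested and 0 were called, at 0.07 for Slc2a1, the main glucose carrier of astrocytes, -0.41 for Slc2a3 (adjusted p = 0.102) and 0.29 for Bsg, the chaperone of the lactate carriers (adjusted p = 0.0909).

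On the mitochondrial side of pyruvate, 8 genes were listed and 5 tested. Pcx was higher in SAMP8 by 0.72 (adjusted p = 0.00169), a call that held under each of the 21 alternatives, and the strains did not overlap. Pdhb, the beta subunit of pyruvate dehydrogenase, was lower at -0.53 (adjusted p = 0.00507) and was detected in 2 of 6 SAMP8 arrays, a call lost with a block for array set (-0.45, adjusted p = 0.0981). Pdhb passed the detection filter only through the SAMR1 groups, where all 3 arrays of each detected it. Its SAMP8 intensities of 88.5 to 138 lay near the medians of those arrays, 85.2 to 104, so the size of its difference is uncertain. In the pentose phosphate pathway, with 8 listed and 6 tested, Rpia, ribose-5-phosphate isomerase, was lower at -0.68 (adjusted p = 0.000482) without overlap, and Taldo1, transaldolase, gave -0.44 (adjusted p = 0.0628). Of the glycogen and gluconeogenesis genes, 16 listed and 7 tested, Pygb, the brain glycogen phosphorylase, was higher at 0.76 (adjusted p = 0.0181), a call lost without SAMP8-CR replicate 1 (adjusted p = 0.0506). Gys1, glycogen synthase, gave 0.23 (adjusted p = 0.144).

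Genes known to be induced by hypoxia outside glycolysis were listed because many glycolytic enzymes share that response. Of 15 listed 11 were tested. Over both sera 3 rose in SAMP8, as did 9.71% of all tested probes, and 0 fell, against 5.93% of probes. The median difference of the 11 was 0.25 beside 0.04 for all tested probes. Egln3, an oxygen-sensing prolyl hydroxylase, was higher by 0.70 (adjusted p = 0.0018), its relative Egln1 by 0.43 (adjusted p = 0.00755, with its other 2 probes at 0.42 and 0.46) and the angiogenic factor Vegfa by 0.39 (adjusted p = 0.0275). The Vegfa call was held in 8 of the 21 alternatives only and was lost without any of 7 arrays, SAMR1-AL replicate 2, SAMR1-CR replicate 2, SAMP8-AL replicates 1 and 3 and SAMP8-CR replicates 1, 2 and 3 (adjusted p 0.0523 to 0.0764). The Egln1 call was lost with a block for array set (0.38, adjusted p = 0.122), as was that of Vegfa (adjusted p = 0.110). In the 8 arrays of low minimum intensity, 2 of the 11 genes called over both sera from these 7 lists kept their call, Hk3 and Pcx. Ndrg1 lay on the other side, at -0.44 (adjusted p = 0.17). Oxygen was not measured, and a difference in hypoxia response between the strains was not tested.

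**Figure D5:**
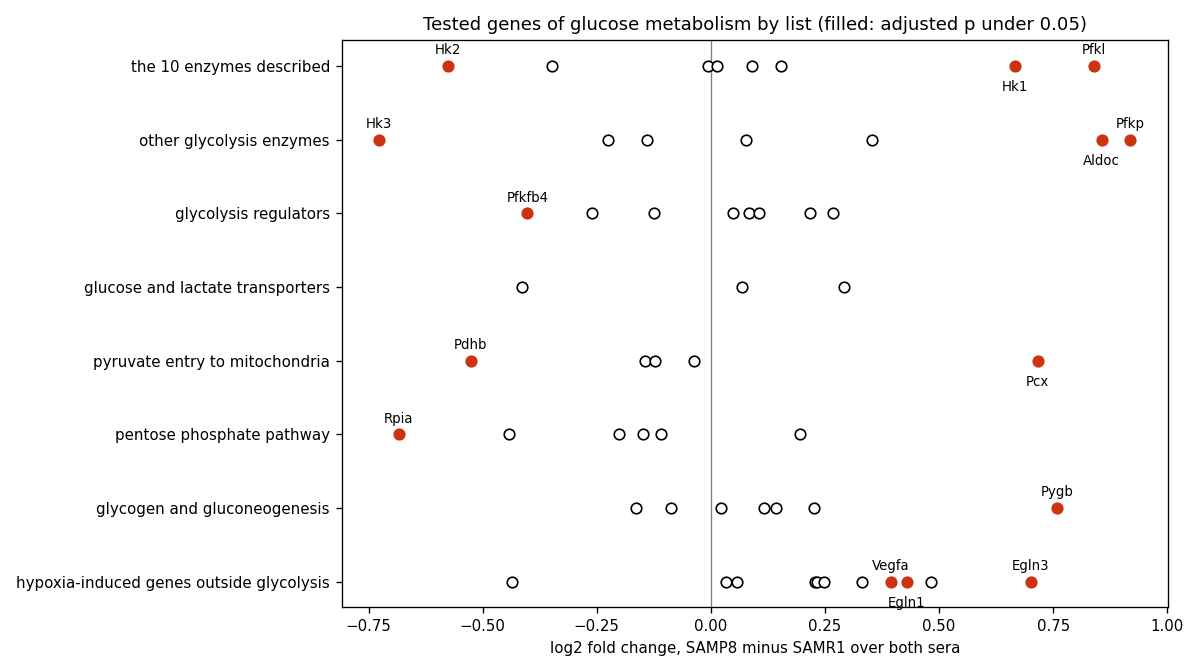
Log2 fold change of SAMP8 against SAMR1 over both sera (x axis) for every tested gene of each list (y axis), brightest probe per gene, with filled and named points for an adjusted p under 0.05. Called genes run from -0.73 (Hk3) to 0.92 (Pfkp). The median of the hypoxia list is 0.25, where the median of all tested probes is 0.04.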

How the data were processed

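Total RNA of 12 astrocyte cultures was hybridised to Illumina MouseRef-8 bead arrays. The authors deposited the intensity of each of 24613 probes per sample, linear and without normalization, and a detection p-value per probe. They also deposited a Z score, in which the log10 intensities of an array are centred on 0 and brought to an SD of 1, and which a recomputation from the intensities matched to within 5e-10. Of the probes 20984 carry 1 gene symbol, 1 carries several and 3628 none, and 20968 of the symbols stand in the GRCm38.p6 annotation. Versions of the scanner software are not given in the sources used here.

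Here the same centring and scaling was applied to log2 intensities, then the mean array SD was multiplied back in. Only probes that at least 1 group detected throughout, at a detection p under 0.05, were kept (10935 probes, 8068 genes). All 12 samples in 4 groups were fitted in 1 model in R 4.3.3 with limma 3.58.1 (lmFit, eBayes with a trend), with 7 comparisons and Benjamini-Hochberg adjustment over all kept probes at 0.05. Within-array differences were tested by exact permutation within the other factor. Figures used Python 3.11.15 and matplotlib 3.10.9. A gene is represented by its brightest kept probe, and a group with 0 arrays detected gives a bound, the lowest intensity that was detected there, written as at least N-fold. The fit was tested on simulated data.

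Named genes are the 10 enzymes, the genes of 7 fixed lists (other glycolysis enzymes, regulators, transporters, pyruvate entry, pentose phosphate, glycogen and gluconeogenesis, hypoxia-induced genes) past the threshold in any comparison and the 2 of smallest p for strain in each list; a few others are named as examples after their values were seen. Markers of 6 cell types were listed too. The enzymes, lists and alternatives were chosen with earlier results of these data known. Alternatives were quantile normalization, normexp background correction (offset 16), no filter and detection in all 12 arrays, 10 samples (both AL groups without their replicate 1, the set from which the study's own Z ratios can be rebuilt), a replicate block, the array set (lowest intensity above or below 20) as a block or the first set only, the Z ratio of at least 1.5, leaving out each array, and, added after seeing the data, median centring only.

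Replicate numbers are shared by the groups. Over all kept probes, deviations of same-numbered samples correlated at 0.12 to 0.44 between SAMP8-AL and SAMP8-CR and at 0.19 to 0.37 between SAMR1-CR and SAMP8-CR, over 0.1 in each of 3 pairs, but at 0.09 to 0.57 between SAMR1-AL and SAMR1-CR and at -0.11 to 0.02 between SAMR1-AL and SAMP8-AL. The sample labels share replicate numbers between groups without saying that same-numbered cultures are paired, and the correlation holds for some comparisons only. The main fit did not pair them, and the replicate block, which joins equal numbers across both strains, was run as an alternative. Comparisons of strain over both sera count the AL and CR cultures of a strain as independent. Their p-values could be too small if same-numbered cultures of a strain shared a preparation.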

Additional observations from a re-analysis of the deposited data

How the results depend on the processing

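Of the 8 tested enzymes 3 were called in P8AL-R1AL. The count was 1 with the 10 samples and 1 with a block for array set, 0 in the first array set alone and 0 with median centring only. Leaving out 1 array gave 1 to 3. In P8CR-R1CR the 1 call became 0 without a filter, with the 10 samples, with a block for array set, in the first set alone and with median centring only, 4 by the Z ratio, and 0 to 1 without 1 array. By the Z ratio 2 enzymes were called in R1CR-R1AL and 3 in P8CR-P8AL, against 0 by limma, with no share of all probes given for the Z ratio. Over both sera the 3 calls became 2 with a block for array set (Hk2 and Pfkl) and 2 with median centring only (Hk1 and Pfkl). They became 1 (Pfkl) in the first array set alone, and remained 3 without each array in turn. Hk2 minus Hk1 between strains was -1.30 with the 10 samples (exact permutation p = 0.0167, adjusted p = 0.0667) and -1.08 in the first array set (exact permutation p = 0.0625, adjusted p = 0.25), each the smallest p that its 120 or 16 relabellings can give, so that these lost calls say nothing about stability. Ldha minus Ldhb, not called, changed sign in the first array set, to -0.17 between strains and to 0.011 between sera. Of 3661 values of single genes under the alternatives 251 changed sign, of which 0 were called before or after. No other probe exists for the subunits, so that alternative of the within-array tests could not be run.

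Counts over all probes moved more. In P8AL-R1AL 1057 probes were called, against 508 with the 10 samples, 621 with a block for array set, 74 in the first set, 367 with median centring only and 431 to 1346 without 1 array. In P8CR-R1CR it was 306, against 183 among probes detected in all 12 arrays, 80 in the first set and 167 to 357 without 1 array, and over both sera 1710, against 870 with a block for array set and 436 in the first set. Median centring raised the share of higher calls over both sera from 62.1% to 76.8% and in P8CR-R1CR from 52.6% to 67.1%, and moved the median of all probes by up to 0.19 (to 0.22 in P8CR-R1CR). With the replicate block 477 probes were called in P8CR-R1CR against 306, and the block changed the call of no enzyme in any of the 7 comparisons (3 remained in P8AL-R1AL and 1 in P8CR-R1CR). The cause of these changes was not tested. The reduced sets also hold fewer samples, and dim probes, such as that of Pgk1, limit what can be said.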

Other observations

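The marker lists of the remaining cell types gave the following counts between strains over both sera, where 15.6% of all tested probes were called. Of the 10 fibroblast and meningeal markers, all tested, 3 were higher in SAMP8, Igf2 (2.01), Col1a2 (0.72) and Pdgfrb (0.48), and 0 were lower, with mean levels of 0.90 to 1.20 in SAMR1-AL and 0.63 to 1.99 in SAMP8-AL. Of the oligodendrocyte and precursor markers, 10 listed and 5 tested, Olig2 (0.57) and Cnp (0.48) were higher, while the myelin genes Mbp, Mog and Mag were not tested. Of the neuron markers, 10 listed and 4 tested, Syt1 was higher (0.33), and Rbfox3, Snap25 and Slc17a7 were not tested. Of the endothelial markers, 8 listed and 3 tested, 0 were called by limma and 0 had an unadjusted p under 0.05.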
